A study of Mus musculus with 12 samples.

Results

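Genomic regions that lost peaks of both Mediator subunits MED1 and MED24 within 2 h of RAF activation are described here in mouse embryonic stem cells. The 8 peak lists of MED1 and MED24 were merged wherever peaks overlapped by at least 1 bp on chromosomes 1 to 19, X and Y. A merged region was counted as lost when it was called in all 4 libraries at 0 h (MED1 and MED24, clones a and b) and in none of the 4 libraries at 2 h. This rule found 1976 of 78166 merged regions (2.53%), and 8.57% of the 23053 regions called in all 4 libraries at 0 h. The reverse pattern, called in all 4 libraries at 2 h and in none at 0 h and here called gained, held for 7065 regions (9.04% of all merged regions and 24.5% of the 28837 regions called in all 4 libraries at 2 h). Another 17027 regions were called in all 8 libraries. The lost regions were chosen by these peak calls, so their presence at 0 h and absence at 2 h is a description and was not tested.

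The cells were E14tg2a embryonic stem cells of 129SV background with a stably integrated cRAF-ErT2 cassette, a fusion of the RAF kinase to a hormone-binding domain that 4-hydroxytamoxifen (4OHT) activates, and through which ERK signalling is switched on. Every sample had been cultured in serum, LIF and 2 µM Chir99021 and then held for 24 h with serum, LIF and PD173074, an inhibitor of FGF receptors, at 250 nM. The 2 h groups then received 250 nM 4OHT for 2 h, and the 0 h groups were left untreated. Each group consisted of 2 clones, a and b, with MED1 precipitated by its own antibody and MED24 through a FLAG tag, after fixation with formaldehyde and disuccinimidyl glutarate. With neither vehicle-treated nor cassette-free cells among the libraries used here, the effects of 4OHT, of time and of ERK activity cannot be told apart. The labels do not say whether the clones were cultured separately, so p-values measure only the spread between these libraries, which may be technical.

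Mediator is a large complex that connects transcription factors on enhancers with RNA polymerase II at promoters. MED1 belongs to its middle module and MED24 to its tail module, and dense Mediator binding marks enhancers of genes that set cell identity. In embryonic stem cells, LIF sustains the naive state, whereas FGF acting through ERK promotes exit from it towards differentiation.

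Few lost regions lay over a listed transcription start. On the chromosomes for which the RefSeq start table (GRCm38.p6, the assembly that mm10 stands for) held entries, 2.31% of 1905 lost regions covered a listed start, against 3.0% of gained regions and 43.7% of the regions called in all 8 libraries. Another 71 lost regions lay on a chromosome with no start in the table. The table had gaps on other chromosomes too. A lost region 0.734 kb from an end of Prdm14 had its nearest listed start 695 kb away. The shares over starts may therefore be too low in every class. A total of 46 listed start windows, each running from 250 bases before to 50 bases after the start, had their start inside 44 lost regions. Among protein-coding genes, 18 windows lay whole inside the lost region. The 4 of these with the best 0 h rank are printed, because they show which promoter sequence lost both subunits; letters in capitals mark matches to the motifs searched below, on either strand.
Klk1 chr7:44225110-44225409, plus strand: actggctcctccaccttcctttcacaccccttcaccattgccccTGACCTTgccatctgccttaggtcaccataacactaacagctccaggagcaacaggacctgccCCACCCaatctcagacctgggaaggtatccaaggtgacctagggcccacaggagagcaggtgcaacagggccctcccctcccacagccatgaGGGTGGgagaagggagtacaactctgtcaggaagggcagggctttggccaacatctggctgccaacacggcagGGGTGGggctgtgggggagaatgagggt
Serpina3i chr12:104262872-104263171, plus strand: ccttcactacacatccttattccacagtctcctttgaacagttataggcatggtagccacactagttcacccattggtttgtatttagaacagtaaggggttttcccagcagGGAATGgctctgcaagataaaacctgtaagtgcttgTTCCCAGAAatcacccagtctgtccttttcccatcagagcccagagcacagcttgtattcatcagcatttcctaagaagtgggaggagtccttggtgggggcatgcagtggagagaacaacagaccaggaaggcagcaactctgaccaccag
Lrrc74b chr16:17561198-17561497, minus strand: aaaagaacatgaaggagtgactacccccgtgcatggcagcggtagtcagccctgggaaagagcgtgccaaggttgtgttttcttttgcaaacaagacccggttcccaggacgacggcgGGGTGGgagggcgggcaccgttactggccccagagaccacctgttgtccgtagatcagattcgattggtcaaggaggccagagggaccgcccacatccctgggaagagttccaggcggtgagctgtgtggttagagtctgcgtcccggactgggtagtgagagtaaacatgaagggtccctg
Muc1 chr3:89228806-89229105, plus strand: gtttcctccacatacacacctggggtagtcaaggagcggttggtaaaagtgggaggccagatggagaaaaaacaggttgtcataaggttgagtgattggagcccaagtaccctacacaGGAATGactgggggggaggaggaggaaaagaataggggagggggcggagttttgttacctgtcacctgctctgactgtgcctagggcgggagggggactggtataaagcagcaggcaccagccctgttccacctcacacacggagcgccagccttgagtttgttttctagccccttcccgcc
Klk1 encodes a kallikrein serine protease, Serpina3i belongs to the serpin family of protease inhibitors and Muc1 encodes a cell-surface mucin. The Klk1 start region had no peak at 2 h, and at 0 h its deposited peak scores were 273 and 344 for MED1 and 644 and 717 for MED24. That of Serpina3i likewise had none at 2 h, and 117 and 216 for MED1 and 549 and 589 for MED24 at 0 h. The Klk1 window held 1 ESRRB and 3 KLF matches, the Serpina3i window 1 TEAD and 1 STAT match, the Lrrc74b window 1 KLF match and the Muc1 window 1 TEAD match.

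The motif letters searched in all 32851 start windows, on both strands, were AAGGTCA (ESRRB), TGCAAAT (POU), CATTGTT (SOX), CCACCC (KLF), TGANTCA (AP-1), CCGGAAG (ETS), GGAATG (TEAD) and TTCNNNGAA (STAT). Matches of different motifs may overlap. AP-1 is the dimer of FOS and JUN proteins through which ERK acts on many genes, and ETS factors are direct ERK substrates. AP-1 letters stood in 2 of the 46 windows in lost regions (4.35%), in 89 of 224 in gained regions (39.7%), in 4.05% of those in regions called in all 8 libraries and in 7.81% of all windows. ETS letters stood in 1 lost window (2.17%), 6.70% of gained windows, 21.7% of windows called in all 8 libraries and 8.86% of all windows. TEAD letters stood in 12 lost windows (26.1%), 15.6% of gained windows, 11.3% of windows in regions called in all 8 libraries and 14.7% of all windows. Overlapping windows at Gm29538, and at Gcdh with Gm39213, are among these 12, so a match may count more than once. STAT letters stood in 6 lost windows (13.0%), 7.14% of gained windows, 6.07% of windows in regions called in all 8 libraries and 8.30% of all windows. The AP-1 share in lost windows was thus of the size seen in windows called in all 8 libraries, while the gained windows stood apart. ESRRB letters stood in 3 lost windows (6.52%) and POU and SOX letters in 2 each (4.35% each), against 4.72%, 4.02% and 3.78% of all windows. KLF letters, which are short and rich in G and C, stood in 39.1% of lost windows and 31.5% of all windows. Lost windows had a median GC content of 54.2% and 6 CG dinucleotides, close to gained windows (54.7% and 7) and below windows in regions called in all 8 libraries (63.0% and 24). These counts describe letters in few windows and show no binding.

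A microRNA locus beside a lost region carries sequences typical of embryonic stem cells. Of 1005 mouse hairpins in the RefSeq table, 21 lay within 5 kb of 14 lost regions, and 8 of these hairpins belonged to the Mir290 to Mir295 cluster on chromosome 7, microRNAs highly expressed in these cells. All 8 lay beside the same lost region. Hairpins near other classes of region were not counted, so no background stands beside these numbers. Mir291a of the cluster was matched by its mature sequences and is not among these 8. The lost region chr7:3216133-3216662 ended 1.96 kb before Mir290a; it was named after its values were seen. Mature microRNAs of the cluster are printed with the seed (bases 2 to 8) in capitals, since 3 of the 4 share it.
mmu-miR-291a-3p: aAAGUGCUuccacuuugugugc
mmu-miR-294-3p: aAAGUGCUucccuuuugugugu
mmu-miR-295-3p: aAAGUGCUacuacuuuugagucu
mmu-miR-290a-3p: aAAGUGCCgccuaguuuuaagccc
The lost region had no peak at 2 h, and at 0 h its scores were 141 and 93 for MED1 and 201 and 228 for MED24. It was flanked by stronger regions called in all 8 libraries. The one that covered the cluster, chr7:3216934-3223961, had a mean percentile of 96.6 at 2 h and 99.9 at 0 h, where percentiles rank the peaks of a library from 0 (weakest) to 100 (strongest). The other 3 upstream (chr7:3199516-3205911, chr7:3206082-3207842 and chr7:3209450-3214712) had mean percentiles of 83.3, 96.3 and 91.5 at 2 h, against 99.9, 99.8 and 99.8 at 0 h. All 4 thus ranked lower at 2 h than at 0 h, but they stood so near 100 at 0 h that they could hardly rise. Regions called in all 8 libraries with a mean 0 h percentile of 80 or more also fell on average. Over 10 kb from a lost region, their change was -9.37 for MED1 and -7.83 for MED24. The locus also held a region that went the other way, chr7:3227926-3228622, called in all 4 libraries at 2 h with a mean percentile of 95.2, against 1 library at 0 h with a percentile of 33.3.

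Every 2 h list was longer than the 0 h list of the same subunit and clone, which bears on the numbers of lost and gained regions. With the full lists 1976 regions were lost and 7065 gained. Cut to the 10000 best peaks of each library, the lists gave 1314 lost and 2395 gained regions. With the 20000 best peaks they gave 2126 and 3893. For clones a and b, the MED1 lists had 43949 and 47305 peaks at 2 h, against 38668 and 37483 at 0 h, and the MED24 lists 42445 and 48931 at 2 h, against 41689 and 38398 at 0 h. Read depth is unknown, and so a missing peak means only that a region did not pass the authors' threshold; the lowest deposited score was 20 in every list. Genes that mark embryonic stem cells had regions called in all 8 libraries, with 2 assigned to Pou5f1, 6 to Sox2, 3 to Nanog, 3 to Sall4 and 8 to Zfp42. Of some fibroblast and lineage genes, Col1a1, Twist1, Thy1, Gata6 and Sox17 had none, and Col1a2 and Cdx2 had 1 each. Other lineage genes did have such regions. Over the whole gene lists used below, there were 4 for fibroblast, 11 for primitive endoderm and 13 for mesendoderm genes. Neural genes had 16 and trophectoderm genes 26, against 48 for naive and 53 for core pluripotency genes.

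Lost regions were narrow and of middle rank. Their median width was 535 bp (quartiles 430 and 694 bp), against 511 bp for gained regions and 1094 bp for regions called in all 8 libraries. A region spans every peak merged into it, from 4 libraries for lost and gained regions and from 8 for the last class. How much of the width gap to that class comes from merging was not tested. At 0 h their median percentile was 46.7 and 44.9 in the MED1 libraries of clones a and b, against 75.5 and 74.5 for regions called in all 8. In the MED24 libraries it was 62.3 and 60.6, against 73.4 and 70.9 for regions called in all 8. The median MED1 fold enrichment at 0 h, the authors' value per peak, was 5.17 and 5.15 in lost regions and 7.54 and 7.48 in regions called in all 8. Both clones therefore gave the same order for both subunits, although the ranges overlapped widely: the mean 0 h percentile of single lost regions ran between 6.36 and 97.0. It was 90 or more in 33 lost regions (1.67%), against 2854 regions called in all 8 (16.8%), and under 50 in 960 lost regions (48.6%), against 3384 (19.9%).

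The MED1 summits of the clones at 0 h lay a median of 50 bp apart in lost regions (quartiles 21.8 and 98 bp), against 48 bp in regions called in all 8 libraries. Ranks were less alike between clones in lost regions. Over lost regions, the Spearman correlation between clones at 0 h was 0.48 for MED1 and 0.76 for MED24, against 0.85 and 0.87 over regions called in all 8, a description over regions that share libraries and, for the lost ones, a narrower range of ranks.

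**Figure D1:**
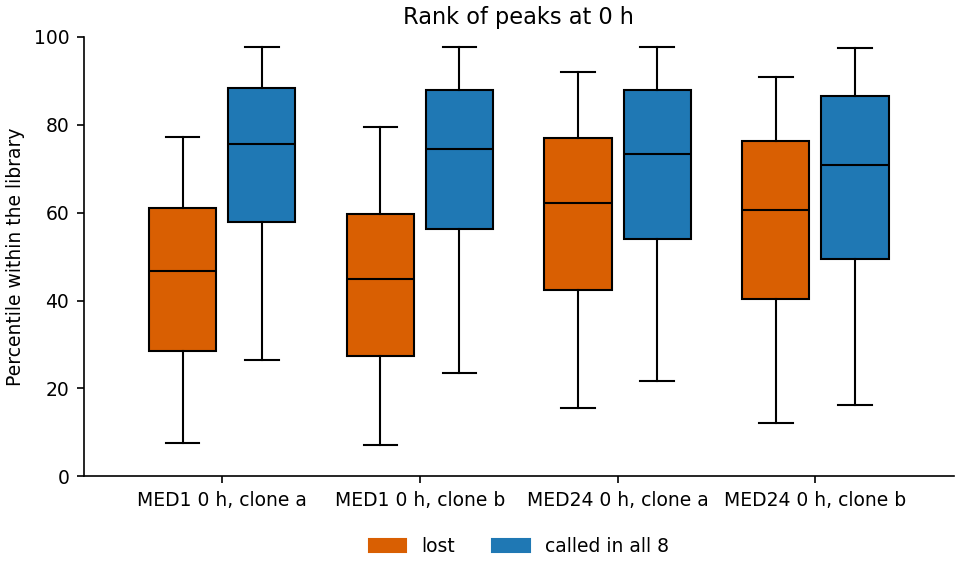
Percentile of each lost region and of each region called in all 8 libraries within each 0 h library, as boxes from the lower to the upper quartile with the median as a line and whiskers from the 5th to the 95th percentile of the regions. Lost regions centre at 46.7 and 44.9 in MED1 and at 62.3 and 60.6 in MED24, below regions called in all 8 in each library.

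Lost regions ranked higher for MED24 than for MED1 at 0 h. The MED24 minus MED1 percentile, each averaged over both clones, had a median of 14.2 in lost regions and was above 0 in 1568 of them (79.4%). In the other regions called in all 4 libraries at 0 h the median was 0.03, and 50.1% were above 0. Most lost regions stood away from gene ends, so the values were also taken there: the median was 14.4 over 1871 lost regions, against 4.29 over 12264 others. In each decile of 0 h rank away from gene ends the lost regions again had the larger median, with 4.89 against -0.21 in the weakest decile, 21.5 against 7.92 in the sixth and 6.12 against 1.2 in the strongest. The percentiles come from different antibodies and from different score columns, and their part in this gap was not tested. The ranks also come from the peaks whose calls chose the lost regions, so the gap is a description.

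Weakly ranked regions were lost more often than strongly ranked ones. Of the regions called in all 4 libraries at 0 h, 17.0% were lost in the weakest decile by mean 0 h percentile, 10.5% in the fifth and 1.04% in the strongest. Rank and call come from the same peaks, so this gradient is a description. Away from gene ends, 23.5% of the weakest and 1.41% of the strongest decile were lost. At gene ends, 4.66% of the weakest and 0.148% of the strongest decile were lost. In every decile the share at gene ends lay below the share elsewhere.

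**Figure D2:**
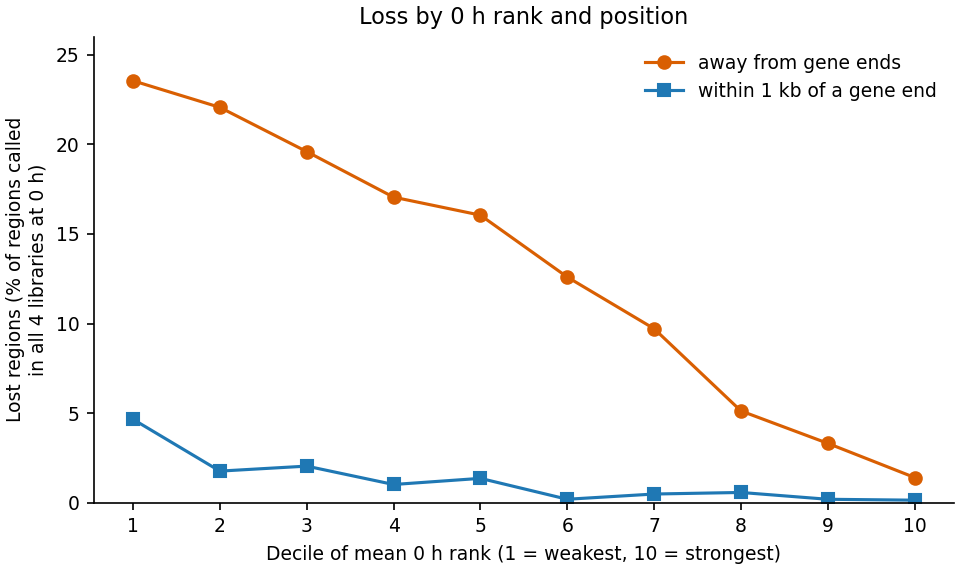
Percent of regions called in all 4 libraries at 0 h that were lost, by decile of mean 0 h percentile from weakest to strongest, for regions within 1 kb of a gene end and for all other regions. Shares elsewhere are 1.41% in the strongest decile, against 23.5% in the weakest, and gene-end shares stay at or under 4.66%.

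Most lost regions lay away from gene ends. Either end of a gene counts here, so a region at a gene end need not be at a promoter. Of 104 lost regions at gene ends on chromosomes with listed starts, 23 (22.1%) covered a listed start. Within 1 kb of either end of a protein-coding gene, 105 of 8918 regions called in all 4 libraries at 0 h were lost (1.18%). Inside genes 787 of 6389 were lost (12.3%), outside genes within 100 kb 767 of 6075 (12.6%), and farther than 100 kb from a gene 317 of 1671 (19.0%). Put as shares of the lost regions, 5.31% stood at gene ends, 39.8% inside, 38.8% outside within 100 kb and 16.0% farther off. Gained regions were placed much like them, with 5.75% at gene ends, 45.8% inside, 36.9% outside and 11.6% farther off. Regions called in all 8 differed, with 48.5% at gene ends. By chromosome the share lost lay between 6.72% on chromosome 17 (71 of 1056) and 11.8% on X (62 of 526), with 0 of 15 on Y.

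The strongest lost regions at 0 h had up to 16-fold MED1 enrichment and scores far above the list threshold. The region inside Ppp2r2c, which encodes a regulatory subunit of a protein phosphatase, led the ranking at chr5:36938710-36939763 with a mean percentile of 97.0. It had no peak at 2 h, and at 0 h MED1 enrichments of 15.5 and 16.1 and MED24 scores of 1859 and 1783. Next came a region inside Ccdc57 (chr11:120850302-120852887), with MED1 enrichments of 12.9 and 11.9 and MED24 scores of 2163 and 1984 at 0 h. In both regions the clones lay close together for both subunits. The only one of the first 10 at a gene end was 0.485 kb from Oas1a, an interferon-induced antiviral enzyme (chr5:120894027-120895771), with MED1 scores of 536 and 756 and MED24 scores of 934 and 1252 at 0 h. Arhgef10l held one at chr4:140639340-140641376, where MED1 enrichment differed between clones at 16.2 and 9.21 and MED24 scores were 1914 and 1558. Vwf, the clotting factor, held one at chr6:125591672-125592607 with MED1 enrichments of 9.65 and 11.7. Regions near Mettl5 (a ribosomal RNA methyltransferase, 1.93 kb), Fgf10 (7.24 kb) and Rab11fip5 (an effector of vesicle recycling, 2.35 kb), and inside Pknox2 (a homeobox factor) and Abcc4 (an efflux transporter), made up the rest, with mean percentiles between 93.7 and 94.99. A gene named here is the nearest one and was not shown to be a target.

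At the other end, the lowest ranked lost regions were barely above threshold. A region inside Mxi1, which encodes an antagonist of MYC (chr19:53322566-53323085), had 0 h scores of 51 and 30 for MED1 and 48 and 33 for MED24. One at an end of Aktip (chr8:91135587-91136022) had 35 and 44 for MED1 and 49 and 41 for MED24, and one 24.1 kb from Zfp202 (chr9:40237725-40238332) had 30 and 38 for MED1 and 33 and 56 for MED24. These scores stood close to 20, the lowest that any list holds.

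Regions just outside the rule were of 2 kinds. Called in all 4 libraries at 0 h and in exactly 1 at 2 h were 1125 regions, 178 in MED1 clone a, 239 in MED1 clone b, 202 in MED24 clone a and 506 in MED24 clone b. Their median mean percentile at 0 h was 51.3, against 50.9 in lost regions, and in the library that still called them the median percentile was between 16.3 and 20.9. These remaining peaks were thus mostly of low rank, and MED24 clone b, the longest list, held the largest number. Called in 3 of 4 libraries at 0 h and in none at 2 h were 1716 regions, with a median 0 h percentile of 32.0; the missing library was MED1 clone a in 660 and MED1 clone b in 607. The 3 best ranked regions that the rule missed by 1 peak had a higher mean percentile at 0 h than any lost one. The first, chr6:31895869-31898173, with no protein-coding gene within 100 kb, had a score of 65 in MED24 clone b at 2 h and no other 2 h peak, against 1097 and 1370 for MED1 and 2515 and 2886 for MED24 at 0 h. The second, inside Oc90, an otoconial protein gene (chr15:65895619-65897629), kept a score of 39 at 2 h in the same library, against 991 and 844 for MED1 and 2622 and 2349 for MED24 at 0 h. The third, 31.8 kb from Lgi1, which encodes a secreted neuronal protein (chr19:38340710-38342281), kept a score of 34 there, against 934 and 769 for MED1 and 1861 and 1623 for MED24 at 0 h.

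Loss was mostly of single regions. Joined over gaps of up to 10 kb, the lost regions formed 1795 singles, 74 runs of 2, 8 runs of 3, 1 run of 4 and 1 run of 5. The run of 5 spanned 4.43 kb at chr16:9349685-9354119, 214 kb from the nearest protein-coding gene Grin2a, a glutamate receptor subunit; all 5 regions in that span were lost. The run of 4 spanned 6.33 kb inside Foxn3, a forkhead repressor gene (chr12:99341735-99348059). Runs of 3 included 1 near Slc30a1, a zinc exporter gene (chr1:191930564-191933622), 1 near Dym (chr18:75306504-75310113) and 1 inside Zfp536, a zinc finger gene (chr7:37471763-37477797). These 3 were the shortest of the 8 runs of 3. The 5 runs described held no region called in all 8 libraries and no gained one in their spans, but of the other runs of 3, that near Lrig1 held 2 regions called in all 8 and those at Tbx3, Esrrb and Hspb8 held 1 each. The median distance of a lost region to the nearest region still called in any library at 2 h was 7.2 kb, with quartiles of 1937 bp and 24.6 kb; 194 lost regions (9.82%) had one within 0.5 kb, and 316 (16.0%) within 1 kb. Within 10 kb, 9.16% of lost regions had another lost region, 7.09% a gained one and 31.2% one called in all 8 libraries. For gained regions these shares were 2.05% with a lost region, 19.5% with another gained one and 26.8% with one called in all 8.

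Regions that kept their peaks beside a lost region ranked lower at 2 h. Over the 803 regions called in all 8 libraries within 10 kb of a lost region, the mean MED1 percentile was 66.4 ± 1.87 at 2 h and 75.1 ± 0.158 at 0 h (SD, n = 2 clones each), a change of -8.68 (clone a -10.1, clone b -7.25). For MED24 it was 66.9 and 70.3 at 2 h in clones a and b, against 76.4 and 74.5 at 0 h, a change of -6.82, made up of -9.49 and -4.15. Both 2 h libraries lay below both 0 h libraries for either subunit. The exact two-sided permutation p was 0.333 for each, the smallest that 2 libraries against 2 can give, so the design could not reach 0.05. Single regions followed in part: 467 of the 803 (58.2%) were lower in both clones for MED1 and 141 (17.6%) higher, and for MED24 425 (52.9%) were lower and 172 (21.4%) higher.

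The change was smaller beyond 20 kb than within 10 kb. From 10 to 20 kb it was -6.26 for MED1 and -3.29 for MED24, from 20 to 50 kb -3.19 and -0.22, from 50 to 100 kb -3.35 and 0.29, and beyond 100 kb, over 12945 regions, -2.47 and 1.26. Beyond 100 kb the MED24 change differed in sign between the clones, with -2.14 in a and 4.65 in b, whereas within 10 kb both were negative. Regions within 10 kb of a gained region changed by 1.65 and 3.75. The neighbours of lost regions ranked high at 0 h, so the values were also split at a mean 0 h percentile of 80, a split chosen after seeing the data. At 80 or more, the change was -16.0 for MED1 and -14.0 for MED24 over 416 regions within 10 kb, against -9.37 and -7.83 over 5597 farther off. Under 80, it was -0.81 and 0.86 over 387 regions, against 0.77 and 5.51 over 10627 farther off. The neighbours thus stood below the rest in both ranges of rank. Under 80 the clones differed in sign near lost regions. Clone a gave -2.43 for MED1 and -2.89 for MED24, and clone b 0.82 and 4.61. Away from gene ends the change near lost regions was -9.97 and -9.79 over 518 regions, against -2.44 and -2.35 farther off. At gene ends it was -6.34 for MED1 and -1.43 for MED24 over 285 regions, against -3.02 and 4.28 farther off. The value of -1.43 joins clones of opposite sign, -3.92 in a and 1.07 in b.

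**Figure D3:**
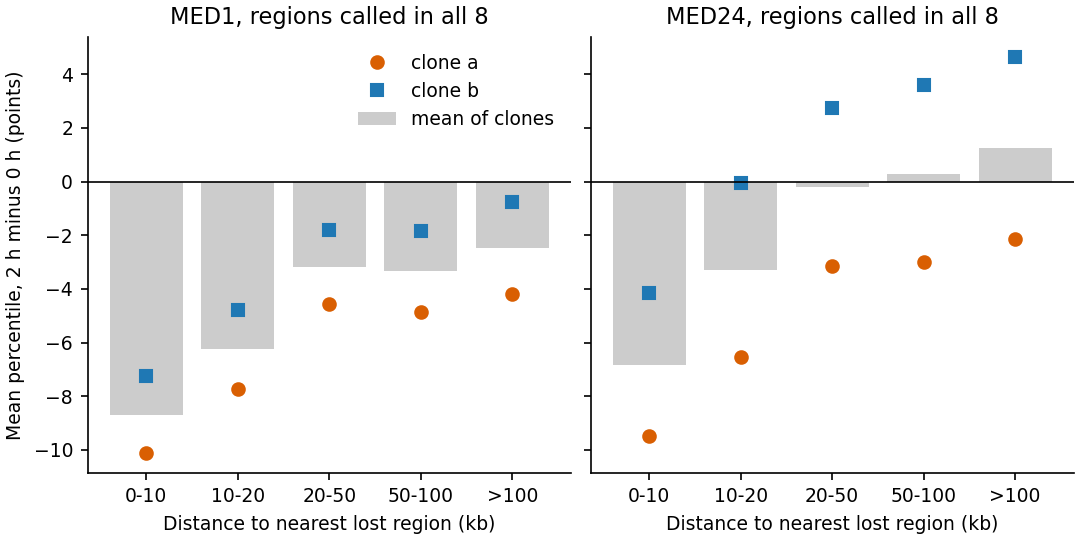
Mean change in percentile (2 h minus 0 h) of regions called in all 8 libraries, by distance to the nearest lost region, for MED1 and MED24, with bars for the mean of both clones and a point for each clone. Within 10 kb the mean change is -8.68 for MED1 and -6.82 for MED24, and beyond 100 kb it is -2.47 and 1.26.

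Assignment to the protein-coding gene that lay closest, up to 100 kb away, placed 1659 lost regions at 1425 genes, of 11742 genes with a region called in all 4 libraries at 0 h. The share lost over assigned regions, the base for all gene counts that follow, was 7.76% of 21382 regions, and 12.5% of the 12464 away from gene ends; 23.4% of assigned regions called in all 4 libraries at 2 h were gained. Most genes had 1 lost region (1235), 155 had 2, 27 had 3 and 8 had 4 or more. Of the 1425 genes, 564 also had a gained region, and 407 had no region called in all 8. The same counts were not taken over all 11742 genes, so they show no trait of genes with lost regions. Nubpl, a factor of mitochondrial respiratory chain assembly, had the most, with 5 lost of 9 regions called at 0 h, 1 gained and 4 called in all 8. Pknox2 lost 4 of 5 and had no region called in all 8. Frmd4b lost 4 of 7, Fndc3b 4 of 9, Foxn3 4 of 9 and Dym 4 of 11. Tbx3 and Tfap2c, both transcription factor genes active in embryonic stem cells, lost 4 of 13 each. Ablim1, an actin-binding protein gene, and Gask1b lost 3 of 3 each. Counting gained regions too, Arntl, a circadian clock factor gene, led with 1 lost and 11 gained, followed by Sgms1, a sphingomyelin synthase gene, with 3 and 6, and Med13l, itself a Mediator kinase module subunit gene, with 2 and 7.

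Genes of naive pluripotency had 16 lost of 85 assigned regions (18.8%), against 7.76% over all genes, and 8 of the 15 genes in the list had at least 1. Away from gene ends the share was 19.7%, against 12.5% over all genes. The regions of these genes ranked higher at 0 h than regions of all genes (median percentile 76.5 against 65.8), whereas the share lost was lower at high rank over all regions. Their gained share was 19.2% of regions called in all 4 libraries at 2 h, against 23.4% over all genes. The lists were chosen with earlier results of these data known, so the shares are given without a test.

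Tbx3, which sustains self-renewal, had 3 of its 4 lost regions in a 10.1 kb run. The strongest, chr5:119579323-119580727, 89.8 kb from the gene, had no peak at 2 h, and at 0 h MED1 scores of 273 and 337 and MED24 scores of 983 and 975. The next, chr5:119582546-119583015, had 42 and 92 for MED1 and 131 and 174 for MED24 at 0 h. Its neighbour chr5:119588858-119589424 had 110 and 117 for MED1 and 134 and 108 for MED24. The fourth, chr5:119613268-119614307, 56.2 kb from the gene, had 135 and 161 for MED1 and 186 and 81 for MED24. The first of these stood well above the others in both subunits. Tbx3 also had 3 gained regions and 5 called in all 8 libraries.

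Esrrb, an orphan nuclear receptor of the naive network, had 3 lost regions within a 10.3 kb stretch inside the gene, of 12 regions called at 0 h. At 0 h the first, chr12:86472776-86475356, had 189 and 62 for MED1 and 102 and 113 for MED24. The second, chr12:86475960-86476919, had 107 and 41 for MED1 and 115 and 189 for MED24. The third, chr12:86481969-86483041, was more even between clones, with 101 and 156 for MED1 and 285 and 265 for MED24. In the first and second, MED1 clone b lay well below clone a. Esrrb also had 1 gained region and 6 called in all 8 libraries.

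Of the other naive genes, 6 lost 1 or 2 regions each. Tfcp2l1, a factor that acts with LIF, lost 2 of 7, one 1.09 kb from the gene (chr1:118626406-118626834; 107 and 62 for MED1, 112 and 210 for MED24 at 0 h) and one 4.53 kb away (chr1:118689700-118690295; 42 and 37, 202 and 253). Prdm14, a repressor of differentiation genes, lost 2 of 9, at chr1:13071158-13071743 (232 and 148, 196 and 226) and, 0.734 kb from a gene end, at chr1:13127897-13128295 (201 and 143, 339 and 441). Klf4, a zinc finger activator, lost 2 of 6, one of them at a gene end (chr4:55527179-55528669; 170 and 127, 55 and 120) and one 7.12 kb off (chr4:55519530-55520020; 196 and 138, 164 and 50). For Nanog, the homeobox factor, it was 1 of 4, chr6:122705119-122705699 at 1.79 kb, and weak in all 4 libraries at 0 h (69 and 100, 59 and 57). Tfcp2l1, Klf4 and Nanog had no gained region, and each of them kept at least 3 regions called in all 8 libraries. Klf2 and Nr5a2 lost 1 each. The 7 genes of the list without a lost region were Dppa3, Fgf4, Gbx2, Klf5, Nr0b1, Tcl1 and Zfp42. Of these, Zfp42 gained 4 regions, Klf5 2 and Dppa3 1, which together make up 7 of the 14 gained regions of the list.

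**Figure D4:**
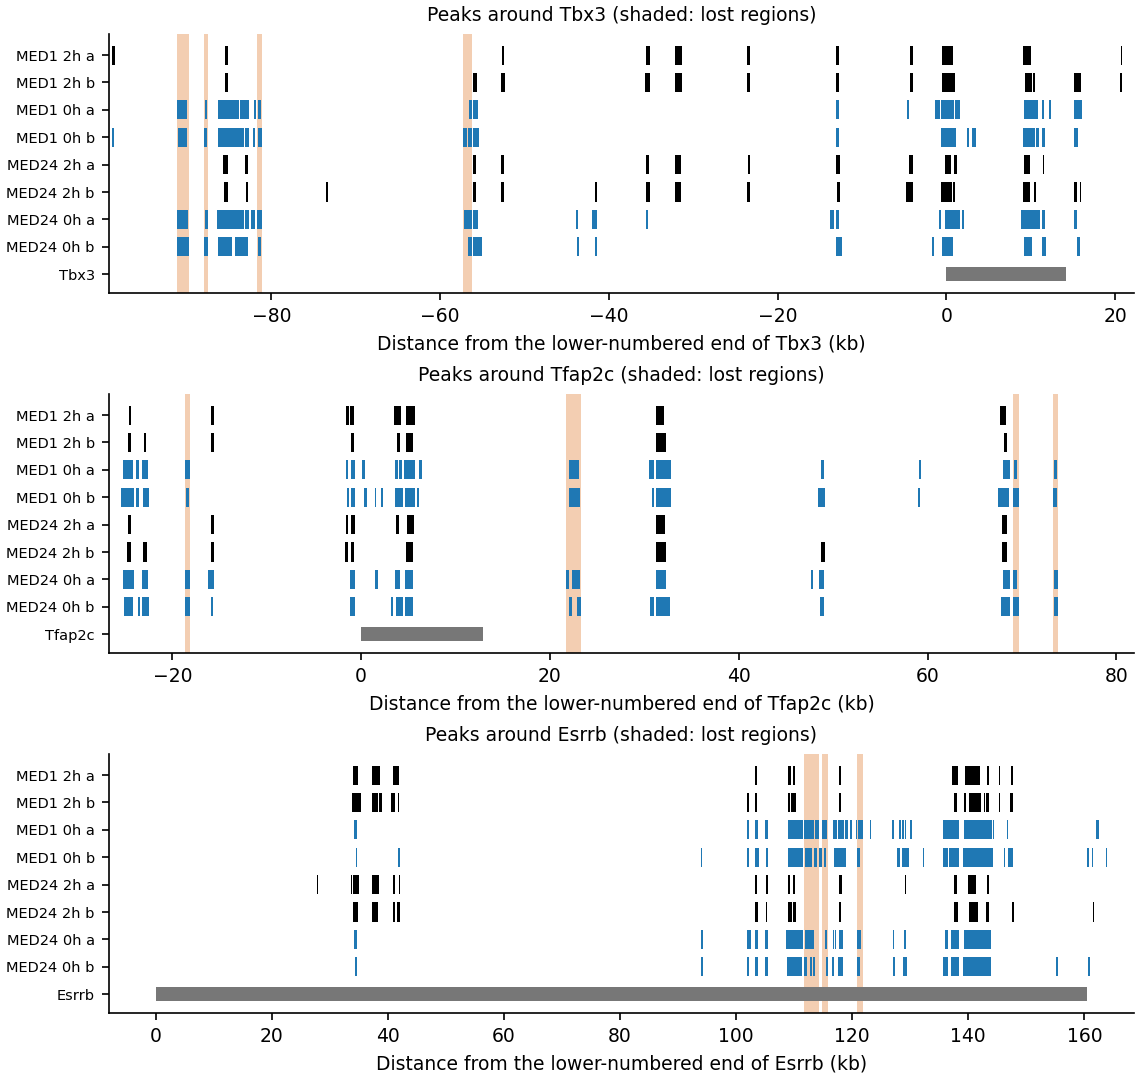
Peaks of each library around Tbx3, Tfap2c and Esrrb by distance from the lower-numbered gene end, with lost regions shaded. MED1 rows stand above MED24 rows, and within each subunit 2 h libraries stand above 0 h libraries. The lost regions hold peaks in the 4 libraries at 0 h and in none at 2 h, beside regions called in all 8.

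The list of FGF ligands and receptors had 7 lost of 34 regions (20.6%), the highest share among the 16 lists. It had 6 gained of 35 regions called at 2 h (17.1%). The list also holds the adaptor genes Frs2, Gab1 and Grb2, which are neither ligands nor receptors. These had 5, 3 and 3 regions called in all 4 libraries at 0 h, with 0 lost. Of the 6 gained regions, 3 were at Gab1 and 1 at Grb2. FGF receptors lie upstream of RAS, RAF and ERK, and PD173074 blocks them in every sample. Fgf10, a ligand, lost 2 of 3: the strong region above (chr13:118705350-118707455; 477 and 450 for MED1, 1418 and 1555 for MED24 at 0 h) and a weak one inside the gene (chr13:118775036-118775565; 54 and 85, 129 and 106). Fgfr2, a receptor gene, lost 2 of 3, neighbours inside the gene at chr7:130251852-130252449 (48 and 117, 213 and 258) and chr7:130253249-130254403 (224 and 170, 300 and 397). Fgfr1 lost 2 of 9 and Fgf15, a ligand, its only one, 7.17 kb away at chr7:144888775-144889365 (184 and 107, 378 and 315). These counts rest on 4 genes.

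The trophectoderm list, genes of the outer layer of the blastocyst, had 7 lost of 42 (16.7%), 4 of them at Tfap2c, 2 at Fgfr2, which the FGF list also holds, and 1 at Gata2. It had 15 gained of 57 regions called at 2 h (26.3%), against 23.4% over all genes. Tfap2c encodes an AP-2 factor that embryonic stem cells express too. Its strongest lost region, chr2:172526994-172527542, 18.1 kb from the gene, had 250 and 100 for MED1 and 496 and 459 for MED24 at 0 h. The others, chr2:172567419-172568936, chr2:172614697-172615333 and chr2:172618981-172619509, had MED1 scores between 60 and 165 and MED24 scores between 78 and 286. No region of Tfap2c was gained, and 6 were called in all 8 libraries. The primitive endoderm list had 2 lost of 16 (12.5%), at Col4a1 and Lamb1, and 13 gained of 31 (41.9%).

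LIF and STAT3 genes had 5 lost of 44 (11.4%) and 12 gained of 43 regions called at 2 h (27.9%), against 23.4% gained over all genes. Socs3, the feedback inhibitor of STAT3 signalling, lost 2 of 10, at chr11:117936023-117936756 (152 and 182 for MED1, 487 and 395 for MED24 at 0 h) and chr11:117939605-117940162 (81 and 42, 271 and 138), and gained none. Lifr, the LIF receptor gene, Pim1, a kinase gene, and Mras, a RAS relative, lost 1 each. Lifr also gained 4 regions and Mras 2, while Pim1 gained none. In core pluripotency the share was 5 of 73 (6.85%), near the share over all genes: Tdgf1, a NODAL co-receptor gene, lost 2 of 3, and Sox2 lost 1 of 8, Jarid2 1 of 14 and Tet1 1.

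Lists of genes that ERK switches on had lost shares below that over all genes, but from few regions, and the 95% Wilson intervals (counting error only) of both, 0.875 to 10.9% for ERK feedback and 2.02 to 15.9% for immediate early genes, hold 7.76%. The ERK feedback list, with the phosphatases and Sprouty proteins that dampen the pathway, had 2 lost of 63 (3.17%), both inside Etv5, an ETS factor gene, against 41 gained of 109 (37.6%). With peaks of score 100 or more its lost share was 11.6%, against 9.36% over all genes, so its place below all genes depends on the threshold. One of the Etv5 regions, chr16:22408753-22410614, had 140 and 234 for MED1 and 257 and 468 for MED24 at 0 h, and the other, chr16:22395138-22395537, 102 and 20 for MED1 and 258 and 86 for MED24, the value of 20 being the lowest a list holds. Immediate early genes had 3 lost of 51 (5.88%), all at Fos, an AP-1 subunit gene, which lost 3 of 7, against 23 gained of 76 (30.3%). The 3 regions at Fos lay 10.9 to 46.8 kb from the gene and had MED1 scores of 74 or less at 0 h.

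In the remaining lists at most 2 regions were lost. Mesendoderm genes had 2 of 20 (10.0%), both at Gsc, a homeobox gene with 2 of 2 lost. Formative epiblast genes had 2 of 38 (5.26%), at Foxd3 and Zic5, and neural genes 1 of 22 (4.55%), at Neurod1. BMP and TGF beta genes had 2 of 49 (4.08%), at Id2 and Smad3. Wnt targets had 1 of 27 (3.70%) and estrogen receptor targets 1 of 18 (5.56%), in both the same Ccnd1 region, a cyclin gene found in both lists. Housekeeping genes had 0 of 26 and fibroblast genes 0 of 5.

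**Figure D5:**
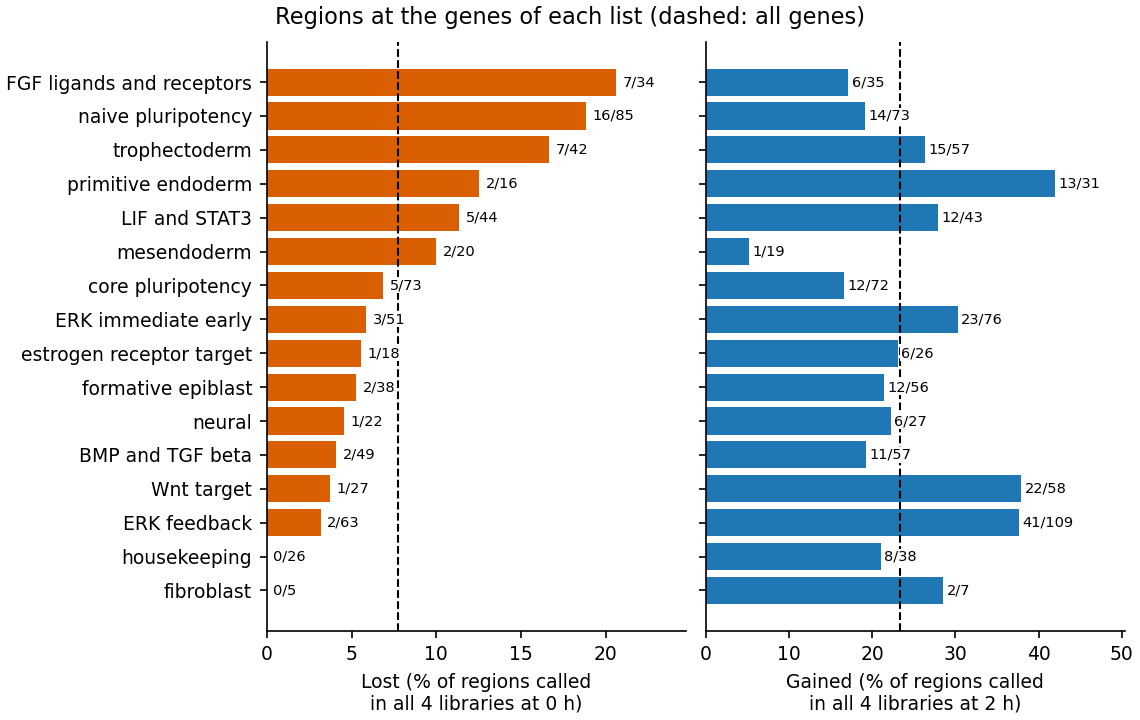
Percent of regions called in all 4 libraries at 0 h that were lost (assigned to the closest gene), for each gene list with its counts (left), and percent of regions called in all 4 libraries at 2 h that were gained (right); dashed lines mark the shares over all genes, 7.76% and 23.4%. Among lost shares, FGF genes (20.6%), naive pluripotency (18.8%) and trophectoderm (16.7%) lie highest, and ERK feedback (3.17%) lies below the share over all genes.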

How the data were processed

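Of 12 samples, the 8 ChIP-seq peak lists were used, and the 4 inputs are not analysed here. Bowtie2, MACS2 and bedtools, with the mm10 build, are named in the submitters' processing notes, whose versions and settings were not given in the sources used here. Each library has a peak list of its own. In the MED1 lists the authors deposited a score, a fold enrichment (a ratio), a −log10 p-value, a −log10 q-value and a summit for every peak, per the file layout. In the MED24 lists they deposited a score alone, whose meaning is not stated. The MED1 score was 10 times −log10 q, rounded down, in 100% of peaks. Names of MED24 peaks mention FLAG and EP300, a different cofactor; group labels were taken from the sample titles. Peak values are the authors' and served for ranking and filtering inside a list. Depth is unknown because the lists hold no read numbers, and precision is limited by 2 clones per group.

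Peaks were merged at an overlap of 1 bp. Percentiles rank the peaks inside a library, by −log10 p for MED1 and by score for MED24. Where a region held more than 1 peak of a library, the highest percentile, score and fold enrichment were taken, which can favour wide regions. Regions were assigned to the closest of 21887 protein-coding gene spans, up to 100 kb away, in RefSeq GRCm38.p6; all 237 genes of 16 lists were found. Start windows and microRNAs came from RefSeq tables, and the motif search planned for all regions was limited to start windows, since no genome was used here. Clone letters link the 2 h and 0 h libraries of a protein, per the labels, and changes are also given per clone. Named regions are the 10 best and 3 lowest ranked lost ones, those of list genes (up to 5 per list by count) and of 7 pluripotency and LIF genes, the 5 runs with most regions (ties by shorter span) and the 3 best ranked regions just outside the rule. Named genes are the 10 with most lost regions and the 3 with most lost and gained regions together. The regions and lists were chosen with earlier results of these data known. Merging and counting were tested on simulated data. Python 3.11.15, pandas 2.3.3, numpy 2.4.6, scipy 1.17.1 and matplotlib 3.10.9 were used.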

Additional observations from a re-analysis of the deposited data

How the results depend on the processing

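The number of lost regions depended on the threshold. It was 1314 with the 10000 best peaks of each library and 550 with 0 h peaks of score 100 or more against all 2 h peaks, while MED1 alone gave 4380 and MED24 alone 5612. With the clones as a replicate block (the rule within each clone letter, averaged) it was 4481, and 16.5% of regions called at 0 h; that MED1 and MED24 libraries of one letter come from one clone is not stated. Leaving out 1 library gave 2154 to 2636. The percentage lost, 8.57 (95% Wilson interval 8.22 to 8.94, counting error only), was 8.97 at a score of 50 or more, 10.2 at 100 or more, 23.4 with the 10000 and 17.5 with the 20000 best peaks, 4.18 with 0 h peaks of 100 or more, 15.7 for MED1 alone, 18.5 for MED24 alone and 8.97 to 10.8 without 1 library. Of the 1976 regions, 548 were also lost at a score of 100 or more and 84 among the 10000 best peaks. The share at gene ends, 5.31%, was 11.1% with a window of 2.5 kb, against 53.2% for regions called in all 8 libraries. The neighbours' change kept its sign in every alternative run, between -5.55 and -10.4 for MED1 and between -2.93 and -10.6 for MED24. The replicate block gives the main values, -8.68 and -6.82, by arithmetic and is no separate check of them. The FGF, naive, trophectoderm and primitive endoderm lists stayed above the share over all genes in 10 of 10 alternatives, and ERK feedback was above it in 1. Most alternatives left out 1 library, and in those no lost region could drop out. The 95% Wilson intervals (counting error only) were 10.3 to 36.8% for FGF, 11.9 to 28.4% for naive and 8.32 to 30.6% for trophectoderm genes. That of primitive endoderm, 3.50 to 36.0%, holds 7.76%. With genes within 20 kb its share was 7.69%, against 6.85% over all genes. The causes were not tested.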
